A study of Canis lupus familiaris with 10 samples.

Results

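The regions described here are 556 distal stretches of accessible chromatin in the canine B-cell lymphoma line 17-71 whose normalised read counts were lower in cells given the PRMT5 inhibitor C220 than in control cells. They were chosen on measured values. In a table of normalised read counts per region, of which the first 1999 rows of 17-71 were held, the rule took log2CPM, the log2 of a region's reads scaled to the size of the library, and subtracted its mean over the control libraries from its mean over the C220 libraries. It kept every region at -0.8 or lower that the table paired with no gene. Of the 1999 rows, 1484 had no paired gene and 823 lay at -0.8 or lower, and 556 met both conditions. The remaining 267 rows at -0.8 or lower had a paired gene. The rows were listed in the order of a test between the same groups, so a region further down the table could not be chosen. "Distal" means here that no gene was paired with the region, which the table did for genes within a few kilobases. Distances to start sites were not analysed here.

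In ATAC-seq a transposase inserts sequencing adapters where chromatin is loose enough to let it in, so a pile of reads marks open chromatin. Open regions away from genes often are enhancers, stretches bound by transcription factors that act on a promoter at a distance, and they differ more between cell types than promoters do. PRMT5 places symmetric dimethyl marks on arginines of histones and of many other proteins, splicing factors among them, and several of its histone marks are linked to gene silencing.

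The series holds 10 libraries from established cell lines. Those of 17-71 were taken at day 4, with 3 controls (B1, B2 and B3) and 2 given C220 (B4 and B6), and those of CLBL-1 at day 2, with 2 controls (C2 and C3) and 3 given C220 (C4, C5 and C6). Both are canine B-cell lymphoma lines, the C220 cultures received 100 nM of the compound (named PR220 in the sample labels). Libraries of 1 line do not sample different dogs. Markers of the cell type were not checked, since gene annotation was not used here. Treatment time differed between the lines, so a difference between 17-71 and CLBL-1 cannot be told apart from a difference between day 4 and day 2. The study describes the experiments as biological replicates, while the labels do not name separate cultures. It also states that outlier ATAC-seq samples were removed after read counts were correlated between samples, without naming them. The 3 control lists of 17-71 held 44378, 33358 and 30943 peaks, and the C220 lists 22076 (B4) and 27646 (B6). In CLBL-1 they held 23822 and 23318 in the controls and 27026, 27247 and 23082 in the C220 libraries. Every control list of 17-71 was thus longer than both C220 lists of that line, whereas in CLBL-1 the 2 groups overlapped. Read depth per library is unknown from these files. Because cells were measured in bulk, a region open in fewer cells and a region less open in each cell cannot be told apart.

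The rule values ran from -2.35 to -0.80 with a median of -0.95 and quartiles of -1.08 and -0.86, and 214 of the 556 regions lay at -1 or lower, a 2-fold lower count. Just inside the threshold were chrX:40334627-40338549 at -0.800062 and chr10:42461853-42464162 at -0.800462. Just outside were chr17:48907990-48909240 at -0.799718 and chr25:13417386-13419004 at -0.798293, so the border fell within a continuous run of values. The median log2CPM of the 556 regions was 4.46 in B1, 4.36 in B2 and 4.53 in B3, and 3.25 in B4 and 3.74 in B6. In 550 regions all 3 controls lay above both C220 libraries, and in 495 the count was lower in B4 than in B6. These values chose the regions and are not evidence about them. B4 carried much of the choice: with B4 left out 202 regions met the rule, and with B6 left out 647 did.

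The closing regions were wider than most accessible regions of 17-71. Their median length was 1358.5 bp with quartiles of 1008.5 and 1829.25 bp, and single regions ran from 289 to 6066 bp. All accessible regions of 17-71, formed by joining overlapping peaks of its 5 libraries, had a median of 1012 bp, and those with a peak in all 5 libraries a median of 1323 bp. The counterpart on the other side of the same table, 760 regions with no paired gene and a rule value of 0.8 or higher (called opening regions below), had a median of 678.5 bp. Opening regions also had lower counts, with a median log2CPM of 1.80, 2.29 and 2.13 in the controls and 3.26 and 3.11 in the C220 libraries. These counts are the values that chose both sets. Every closing region coincided at both ends with 1 of the 48847 joined regions of 17-71.

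Peak calls in 17-71 were made on the same libraries as the counts, and so describe the regions without testing them. A peak was called in 532 of the 556 regions (95.7%) in B1, in 509 (91.5%) in B2 and in 505 (90.8%) in B3. In the C220 libraries it was called in 246 (44.2%) in B4 and in 367 (66.0%) in B6. Over all 48847 regions of the line the shares were 90.0%, 67.9% and 63.2% in the controls and 44.6% and 56.2% in B4 and B6. The closing regions stood above this level in all 3 controls and in B6 and sat at it in B4. Opening regions held a peak in 30.8%, 21.1% and 17.0% of cases in the controls and in 64.2% and 64.9% in the C220 libraries.

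**Figure D1:**
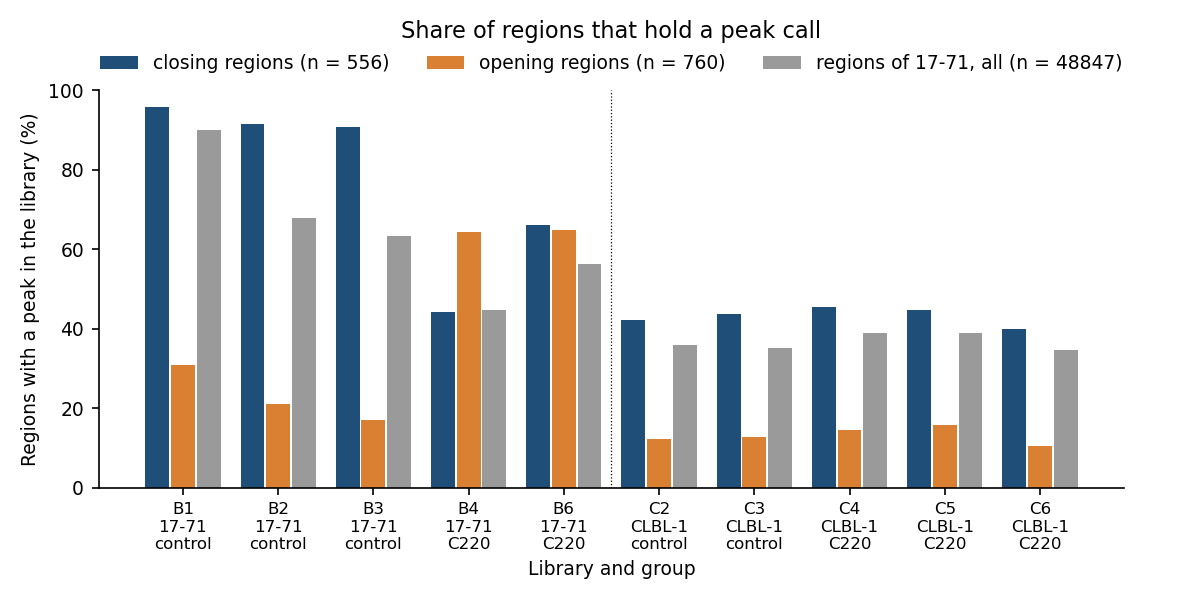
Share of regions with a peak (vertical axis, %) in each of the 10 libraries (horizontal axis) for the 556 closing regions, the 760 opening regions and all 48847 regions of 17-71. Closing regions go from 90.8% or more in the 17-71 controls to 44.2% in B4 and 66.0% in B6, while their 5 shares in CLBL-1 lie between 39.9% and 45.5%.

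Of the 556 regions, 373 had a peak in B4, B6 or both, and 183 in neither. Over all regions of 17-71 the share was 44.6% in B4 and 56.2% in B6, and the share with either was not computed. At a -log10 p of 10 or more, 66 of the 556 regions held a peak in B4 and 172 in B6. In B1, B2 and B3 these counts were 424, 376 and 385. The shares over all regions were not computed at this setting. The median -log10 p of the whole peak list was 8.07 in B4 and 8.48 in B6, and 10.8, 9.67 and 9.64 in B1, B2 and B3. In 240 of the 556 closing regions a peak was called in all 5 libraries of 17-71, beside 17618 of all 48847 regions. In 132 all 3 controls and 1 C220 library had a peak, and that library was B6 in 126 of them and B4 in 6. How often all regions had this pattern was not computed. In 104 regions all 3 controls and neither C220 library had a peak, against a background of 6.94% of all regions of 17-71 (3389 of 48847). Since the rule used this contrast, nothing is read from that difference. The count of 104 also depended on the lists used. It was 230 with B6 left out, 169 with peaks of a -log10 p of 10 or more, and 62 with the 20000 strongest peaks per library. The background was not computed at these settings. In 80 regions fewer than 3 controls held a peak, 42 of them with a peak in 1 control library only. The reverse, peaks in B4 and B6 with none in the controls, was found in 0 of the 556 regions. It was rare in the whole line too, at 105 of 48847 regions.

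Where peaks remained, they were narrower and less significant. At the 240 regions with a peak in all 5 libraries the median covered length was 1408, 1407 and 1441.5 bp in B1, B2 and B3, and 824 and 1185.5 bp in B4 and B6. In 237 of the 240 regions the B4 peaks covered less than the mean of the controls, with a median ratio of 0.617, and in 206 the B6 peaks did, with a median ratio of 0.860. These are 98.8% and 85.8% of the 240. Over all 17618 regions with a peak in all 5 libraries, 90.6% were narrower in B4 and 74.0% in B6, with median ratios of 0.746 and 0.913, so shorter peaks in the C220 libraries were not limited to closing regions. The C220 peaks lay inside the old ones: at the median region 100% of the bases covered in B4 and 99.4% of those in B6 were covered in all 3 controls too. The median -log10 p of the peaks at the 240 regions was 29.0, 24.2 and 24.2 in the controls and 7.84 and 11.8 in B4 and B6. At all 17618 such regions it was 23.4, 15.6 and 14.4 in the controls and 9.18 and 11.3 in B4 and B6, so lower values in the C220 libraries were not limited to closing regions. This measure grows with read depth.

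Fold enrichment is the ratio of a called peak's signal to its local background, and peaks differed in length between libraries, as given above. It could be read in all 5 libraries at 240 regions. The other 316, with no peak in at least 1 library, have no value there, and the requirement favours regions whose enrichment was kept. Its median at the 240 regions was 5.07, 4.59 and 4.57 in the controls and 4.05 (B4) and 4.01 (B6) with C220. Over all 17618 regions with a peak in all 5 libraries it was 4.98, 4.03, 3.98, 4.20 and 3.93. After each library was centred on its own median, the median difference between C220 and control was -0.11 on the log2 scale at the 240 closing regions and 0.03 over all 17618. By library, the centred median of the 240 was 0.03, 0.19 and 0.20 in B1, B2 and B3, and -0.05 and 0.03 in B4 and B6. Control B1 thus lay at the level of B6. The median rule value of the same 240 regions was -0.88, which the rule fixed at -0.8 or lower, so the sizes of the 2 differences are not compared. Lower values in C220 were found in 67.1% of the 240, against 43.0% of all.

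**Figure D2:**
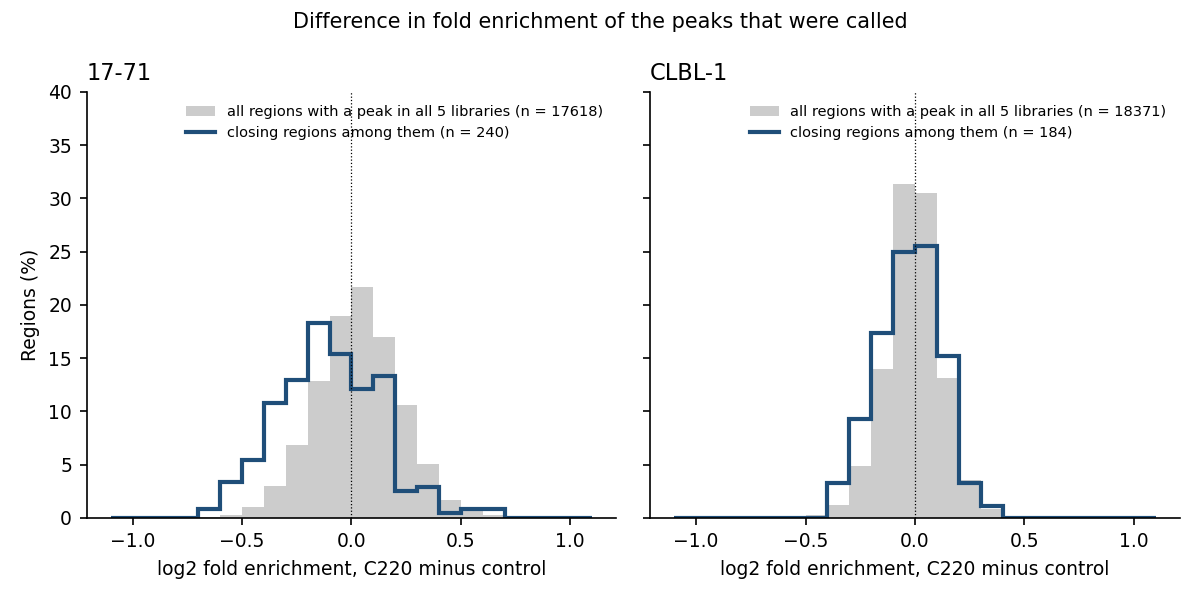
Difference in log2 fold enrichment between C220 and control libraries (horizontal axis, log2) as a share of regions (vertical axis, %) for all regions with a peak in all 5 libraries of the line (grey) and the closing regions among them (blue). The closing regions are centred at -0.11 in 17-71 and at -0.02 in CLBL-1, beside 0.03 and -0.004 for all regions.

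No region of 17-71 passed an adjusted p of 0.05 on fold enrichment (limma, Benjamini-Hochberg over 17618 regions; the smallest adjusted p was 0.107), closing regions included. This smallest value was found at a closing region, chr2:11368130-11370312, where fold enrichment was higher in C220, by 0.64 on the log2 scale. With 3 libraries against 2, the smallest p of an exact permutation test of a single region is 0.1. At an unadjusted p under 0.05, 48 of the 240 closing regions (20.0%) were lower in C220, against a background of 5.17%, and 14 (5.83%) were higher, against a background of 9.35%. The count of 48 became 29 (12.1%, against 3.95% of all regions) without control B2 and 78 (32.5%, against 6.43%) without control B1. In 57 of the 240 (23.8%) every control lay above both C220 libraries, against a background of 11.9%, and in 25 (10.4%) every control lay below, against a background of 20.2%. As the counts that chose the regions come from the same reads, these shares are a description.

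Fold enrichment can also be read as a rank within a library's own peak list, though the lists differ in length. The peaks at closing regions sat at a median percentile of 63.2 in B1, 70.7 in B2 and 70.1 in B3, and at 50.7 in B4 and 59.5 in B6. In CLBL-1, which the rule did not use, the median percentile was 50.2 and 47.3 in the controls and 48.7, 48.7 and 48.2 in the C220 libraries. These ranks cover only the regions with a peak in the library concerned, from 222 in C6 to 532 in B1, and in 17-71 they come from the libraries that chose the regions. At the 240 regions with a peak in all 5 libraries of 17-71 the medians were 76.8, 82.4 and 81.7 in the controls and 52.5 and 67.2 in B4 and B6, beside 74.9, 69.4, 65.9, 58.3 and 64.3 for all 17618 such regions. Opening regions sat low in all libraries of 17-71, at percentiles of 23.9, 24.0 and 22.5 in the controls and 20.6 and 23.9 in B4 and B6.

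**Figure D3:**
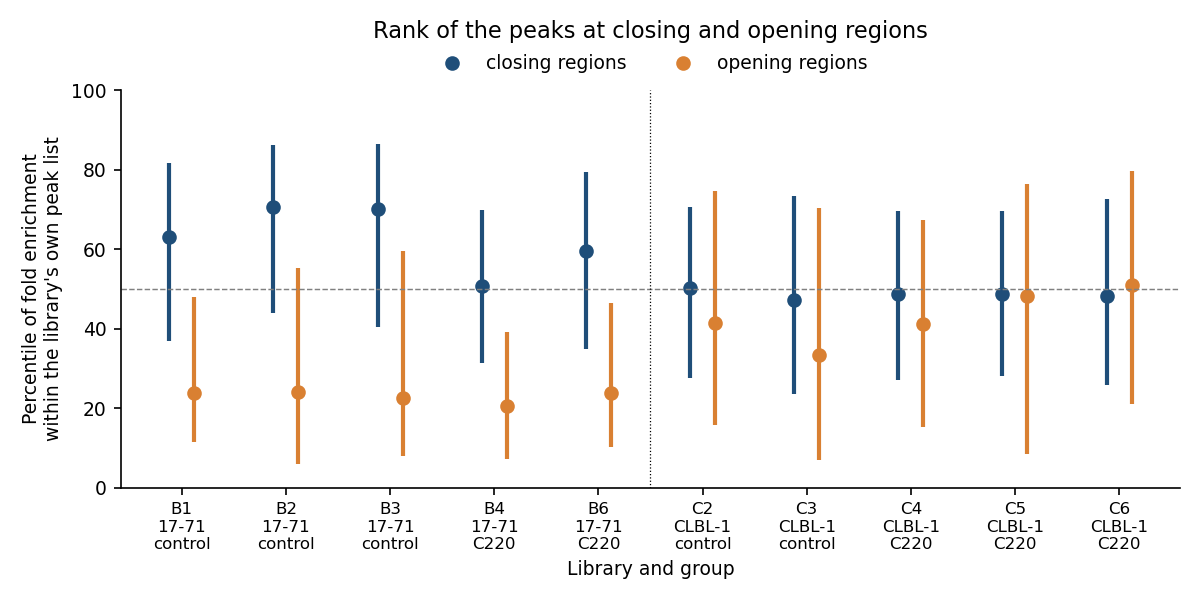
Percentile of fold enrichment within the library's own peak list (vertical axis, %) for the peaks at closing and opening regions in each library (horizontal axis), with the median as a point and the quartiles as a line. Closing regions stand at 63.2 to 70.7 in 17-71 controls, at 50.7 and 59.5 in the C220 libraries and at 47.3 to 50.2 in CLBL-1.

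CLBL-1 gave measurements that were independent of the rule. Of the 556 regions, 291 (52.3%) overlapped a peak of at least 1 CLBL-1 library and 183 (32.9%) a peak of all 5, while 265 (47.7%) overlapped none. Over all regions of 17-71, 44.8% overlapped at least 1 CLBL-1 peak and 29.3% a peak of all 5. Of the opening regions, 20.1% overlapped at least 1 and 8.29% all 5. These shares do not account for length, whose median was 1358.5 bp in closing, 1012 bp in all and 678.5 bp in opening regions. By library, 234 and 243 closing regions held a peak in the CLBL-1 controls and 253, 249 and 222 in the C220 libraries, so the groups overlapped.

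Closing regions were also split by their peaks in CLBL-1. Those with a peak in all 5 CLBL-1 libraries had a median length of 1502 bp, and those with none 1216 bp. In B1 their peaks sat at a median percentile of 69.2 and 58.6, respectively. A peak was called in 98.9%, 98.4% and 98.4% of the former and in 92.5%, 87.5% and 86.4% of the latter in the 17-71 controls, and in 59.0% and 84.2% against 34.7% and 54.3% in B4 and B6. Over all regions of 17-71 the same split gave lengths of 1310 and 882 bp, shares of 98.2%, 86.0% and 84.7% against 85.0%, 59.1% and 53.0% in the controls, and 70.1% and 78.4% against 33.7% and 46.7% in B4 and B6. Longer regions with more peak calls among those shared with CLBL-1 were thus common to all regions of the line. Their median rule value was -0.92, and that of the regions with no CLBL-1 peak was -0.98.

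Few closing regions lost or gained a peak in CLBL-1. Of the 291 with a peak in that line, 5 (1.72%) had one in both controls and in no C220 library, against a background of 0.497% of the 32575 joined regions of CLBL-1. The reverse held for 3 (1.03%), against a background of 1.73%. These counts of 5 and 3 are small, and with 1 library left out they reached 11 and 13. The 5 were chr12:61480185-61483669, chr23:46693116-46694889, chr25:18026572-18027786, chr3:54265383-54267180 and chr8:13908708-13909500. In 17-71 each of these had a peak in all 3 controls and in at least 1 C220 library, so none of them lost its peak in both lines.

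For 184 closing regions the overlapping CLBL-1 region had a peak in all 5 libraries, which allowed a test of fold enrichment. None passed an adjusted p of 0.05 (limma, Benjamini-Hochberg over 18371 regions; the smallest adjusted p among the 184 was 0.826). Over all regions 1 was called, higher in C220, a background of 0.00544%. The median difference of the 184 was -0.02 on the log2 scale, with quartiles of -0.12 and 0.07, beside -0.004 for all regions. Fold enrichment was lower in C220 for 101 of the 184 (54.9%), beside 51.7% of all regions. At an unadjusted p under 0.05, 17 (9.24%) were lower, against a background of 3.33%, and 3 (1.63%) were higher, against a background of 2.53%. In 33 of the 184 (17.9%) both controls lay above all 3 C220 libraries, against a background of 10.6%, and in 14 (7.61%) both lay below, against a background of 9.61%. The count of 17 fell to 10 without centring, when that of all regions fell from 611 to 338, and ranged from 9 to 17 with 1 library left out, being 9 of 186 (4.84%, against 2.71% of all regions) without the first C220 library (C4) and 11 of 194 (5.67%, against 4.29% of all) without the second control (C3).

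The 3 closing regions with the smallest unadjusted p in CLBL-1 did not move in 1 direction. At chr19:53264264-53264838 fold enrichment was 5.90 and 5.39 in the CLBL-1 controls and 4.24, 4.28 and 4.60 in the C220 libraries, a difference of -0.37 on the log2 scale with a standard error of 0.09. In 17-71 this region had a peak in all 3 controls, at 6.64, 4.15 and 3.78, and in neither C220 library. At chr27:1804937-1806235 the CLBL-1 values were 5.13 and 4.40 in the controls and 3.58, 3.38 and 4.13 in the C220 libraries, a difference of -0.37 with a standard error of 0.10. In both regions all controls of CLBL-1 lay above all of its C220 libraries. At chr1:18185172-18186804 the order was the opposite, with 3.57 and 3.59 in the controls and 4.67, 4.33 and 5.25 in the C220 libraries, a difference of 0.40 with a standard error of 0.10. The adjusted p of each was 0.826 (limma).

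Single regions of 17-71 show the forms that a lower count took. The lowest rule value, -2.35, belonged to chr14:40145141-40145972. Its log2CPM was 1.85, 2.35 and 2.48 in the controls, -2.15 in B4 and 1.90 in B6. B4 alone stood apart there, and B6 lay above the lowest control. The next lowest, chr16:8197542-8197872 at -1.88, had a peak in B2 only. The third, chr25:44531741-44532429 at -1.77, had log2CPM of 2.15, 2.10 and 2.33 in the controls, -0.92 in B4 and 1.77 in B6. The most negative rule values thus were found at weak sites with few reads.

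The next regions were chosen, among the 104 with a peak in all controls and in no C220 library, for the largest -log10 p of the weakest control peak. At chr27:38140464-38141075 the -log10 p was 30.7 in B1, 22.2 in B2 and 24.9 in B3, and fold enrichment was 3.27, 3.20 and 3.18. Its log2CPM was 5.02, 4.76 and 5.03 in the controls and 3.39 and 3.54 in the C220 libraries, with no overlap and with both C220 libraries close to each other. Its rule value was -1.47, and no library of CLBL-1 had a peak there. At chr3:17878579-17879727 the log2CPM was 4.23, 3.99 and 4.27 in the controls and 2.93 and 3.04 in the C220 libraries, and fold enrichment in the controls was 4.97, 4.01 and 4.16. At chr9:53482943-53483810 the log2CPM was 4.10, 3.81 and 4.00 against 2.93 and 3.06. In these 3 regions B4 and B6 gave nearly the same level, unlike at chr14:40145141-40145972 and chr25:44531741-44532429. At chr34:40623547-40625068 the 17-71 peaks were at 4.90, 4.08 and 4.02 in the controls, and peaks of 3.82 and 4.54 stood in C3 and C6, a control and a C220 library of CLBL-1. At chr5:39832707-39834726 B6 lay at a log2CPM of 3.83 and B4 at 2.68, below controls of 4.29, 4.24 and 4.68.

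Of the 240 closing regions chosen for a peak in all 5 libraries, those with the largest mean fold enrichment differed in how far this measure went with the count. At chr22:59473504-59475123 fold enrichment was 6.93, 7.69 and 8.38 in the controls and 5.73 and 5.35 in the C220 libraries, and the log2CPM was 5.85, 5.74 and 5.81 against 4.66 and 5.19. Both measures were lower in both C220 libraries than in any control. At chr3:78962353-78963548 fold enrichment was 7.20, 6.73 and 6.81 in the controls and 6.76 and 6.53 in B4 and B6, so the groups overlapped, while the log2CPM was 6.42, 6.46 and 6.53 against 5.02 and 5.82. Here the count was lower and fold enrichment was not clearly so. The peaks covered 1192, 1176 and 1139 bp in the controls and 939 and 991 bp in B4 and B6. Fold enrichment was thus read over different lengths. At chr1:93696145-93697075 fold enrichment was 9.01, 6.84 and 6.48 in the controls and 5.87 and 5.29 in the C220 libraries. This region was also open in all 5 CLBL-1 libraries, at 6.41 and 5.42 in the controls and 6.20, 6.14 and 6.17 in the C220 libraries, where the groups overlapped.

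Fold enrichment was also read at accessible regions beside the closing ones. The nearest regions on either side of a closing region that lay within 50 kb, had a peak in all 5 libraries of 17-71 and were not closing regions themselves numbered 559. Their median difference was 0.05 on the log2 scale and 37.9% of them were lower in C220. Over all fitted regions these were 0.03 and 43.0%, and at the closing regions -0.11 and 67.1%. Neighbours that were closing regions themselves, or that had lost a peak, are left out of these values by construction.

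Closing regions lay near each other more often than accessible regions at large lay near a closing region. Another closing region lay within 100 kb of 167 of the 556 (30.0%), a closing row with a paired gene within 100 kb of 83 (14.9%), an opening region within 100 kb of 2 and an opening row with a paired gene within 100 kb of 2. Over all 48847 accessible regions of 17-71, 7.93% had a closing region, 4.66% a closing row with a gene, 5.20% an opening region and 1.72% an opening row with a gene within that distance. The closing and opening regions were spread unequally over the chromosomes, as described below, and this difference was not tested. Of the opening regions, 161 (21.2%) had another opening region within 100 kb and 2 a closing region. Joined at distances of up to 100 kb, the 556 regions formed 389 singles, 60 pairs, 11 groups of 3, 1 group of 4 and 2 groups of 5.

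The group of 5 on chr1:40261765-40310474 held a row paired with ZC3H12D and lay 12.9 kb from another. This gene encodes an RNase of the family that degrades messages of inflammatory genes. The row inside the group had a rule value of -0.85 and the one beside it -0.94. The 5 closing regions had rule values of -0.99, -1.07, -0.84, -0.94 and -0.80. In 3 of them, which had peaks in all 5 libraries of 17-71, centred fold enrichment was higher in C220 than in control, by 0.26, 0.31 and 0.37 on the log2 scale, with adjusted p of 0.337, 0.356 and 0.244 (limma). At chr1:40285327-40288236, the middle value, it was 3.28, 3.66 and 3.62 in the controls and 4.51 and 3.77 in B4 and B6, above every control. At chr1:40268734-40271656 and chr1:40273099-40273594, peaks stood in 2 controls and in 1 control, respectively, and none in B4 or B6, so fold enrichment could not be compared there. Where they were called, the peaks in B4 and B6 were mostly shorter, which is visible in the map of the group.

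The other group of 5, on chr33:17105889-17298175, held a row paired with ENSCAFG00000040186, with a rule value of -0.74 and 6.85 kb from the closest of 4 closing regions within 100 kb. A row of ENSCAFG00000025131 at -1.04 lay 56.9 kb from a closing region. The group also began within 100 kb of a row paired with BTLA, an inhibitory receptor of lymphocytes, with a rule value of -0.81. A single closing region on the other side of that row was nearer, at 19.3 kb. Its first region, chr33:17105889-17107518, had fold enrichment of 4.50, 3.52 and 3.86 in the controls, and no peak in B4, B6 or any library of CLBL-1. Its second, chr33:17178395-17180496, was open in all 10 libraries, with fold enrichment of 4.70, 4.57 and 4.57 in the 17-71 controls, 4.24 and 3.97 in B4 and B6, and 4.09 to 4.71 in CLBL-1. Regions particular to 17-71 and regions of both lines thus stood side by side in 1 group.

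**Figure D4:**
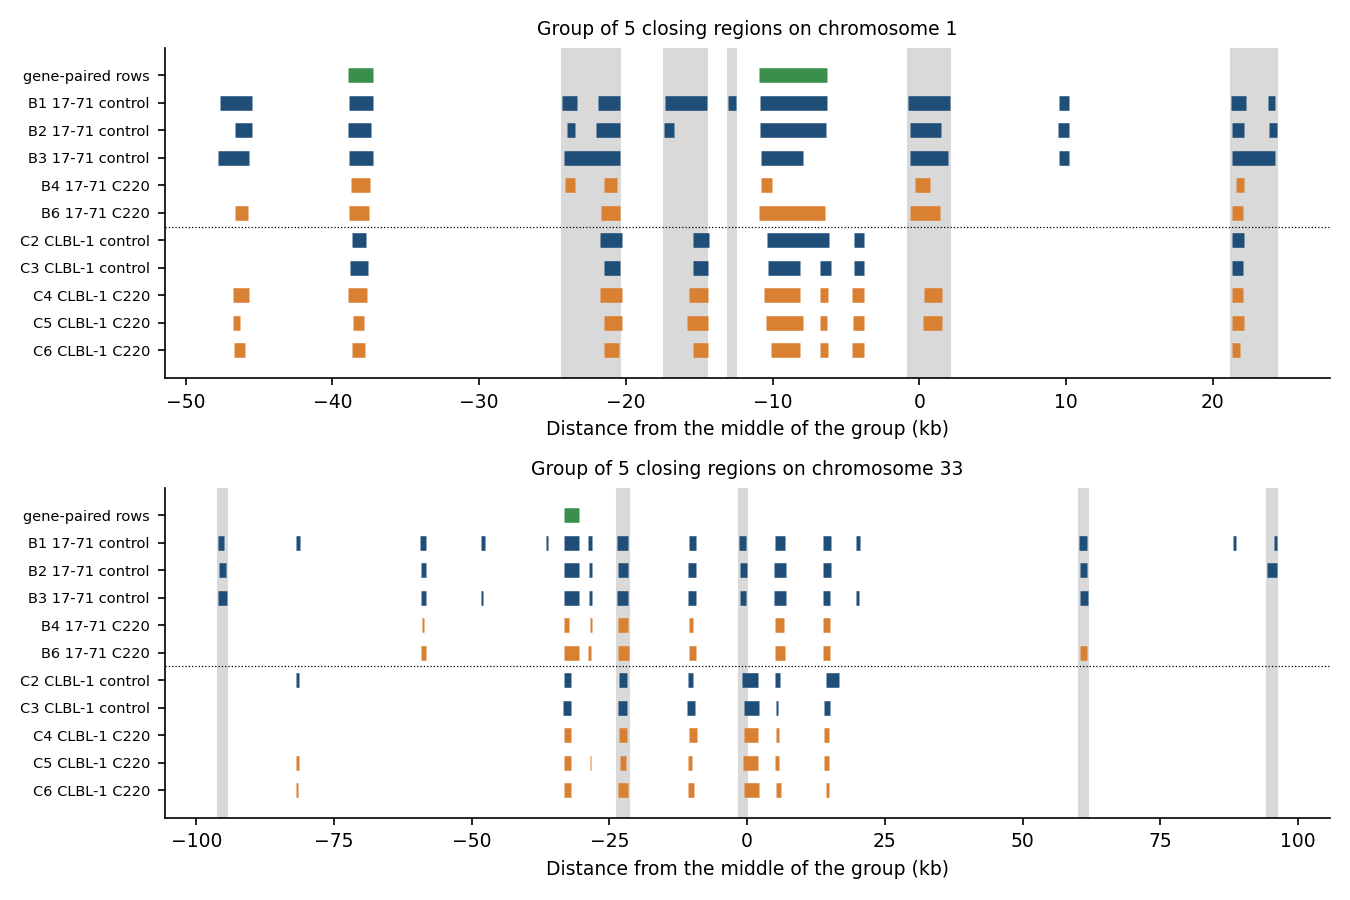
Peaks of each library (rows; blue for control, orange for C220) along the 2 largest groups of closing regions, by distance from the middle of the group (kb), with closing regions shaded grey and rows paired with a gene in green. Each shaded region has a blue bar in at least 1 control of 17-71, and the orange bars of B4 and B6 there are mostly shorter or missing.

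The group of 4 on chr7:18033547-18079899 and 9 of the 11 groups of 3 had no gene-paired row within 100 kb. Both other groups of 3 had one. The regions on chr6:40798058-40810290 lay near a row of DENND2D, a regulator of Rab GTPases, at -1.20, and those on chr13:29513575-29539207 near a row of SLA, an adaptor that dampens antigen receptor signalling, at -1.07. All 3 regions near DENND2D had peaks in all 10 libraries.

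Rows paired with a gene give the only gene context in these data, and distances are between accessible regions, not to start sites. Within 100 kb of a closing region lay 95 such rows of 85 genes, of which 92 had a rule value below 0 and 76 (80.0%) were at -0.8 or lower. Of all 515 gene-paired rows held, 336 were below 0, 179 above and 267 (51.8%) at -0.8 or lower. The 3 rows above 0 belonged to C18H11orf86, ENSCAFG00000036419 and SLC38A4, an amino acid transporter, at 1.83, 1.01 and 0.74. These values come from the same libraries as the rule.

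Several of the 85 genes act in lymphocytes; they are named here after their values were seen and were not tested as a group. Antigen presentation was represented by HLA-DRB1, DLA-DRA and DLA-DQA1, which encode chains of MHC class II molecules, with rows at -1.01 and -1.51 (HLA-DRB1), -0.75 (DLA-DRA) and -0.94 (DLA-DQA1). The closing region nearest to each was chr12:2179050-2181736, and a second one, chr12:2270189-2271523, lay within 100 kb of DLA-DQA1. Both had a peak in all 5 CLBL-1 libraries. MHC class II genes have near-identical copies, so the placement of reads there is uncertain. PDCD1LG2, a ligand of the inhibitory receptor PD-1, had a row at -0.85 that lay 4.85 kb from the closest of 2 closing regions. One of these, chr1:93631636-93633371, had a peak in all 3 controls and in neither C220 library, and the other is the strong region at chr1:93696145-93697075. CD69, an early marker of lymphocyte activation, had a row at -0.84 at 4.82 kb from chr27:36190210-36191586. BCL2A1, a survival protein of the BCL2 family, had a row at -0.81 at 32.7 kb. TAGAP, a GTPase-activating protein of activated lymphocytes, had a row at -0.91 at 8.40 kb, and LCP1, an actin-bundling protein of leukocytes, rows at -1.58 and -0.78 at 8.63 and 5.82 kb.

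Of a list of 35 genes of B-cell identity, signalling and survival, 4 had a gene-paired row among those held. CCR7, the receptor that guides lymphocytes to lymph nodes, had a row at -0.98 with 1 closing region at 53.9 kb, chr9:22123191-22125154. That region had a peak in all 10 libraries. MYC, a driver of growth, had a row at -1.31 (chr13:25204781-25208119) with no closing region within 1 Mb and the nearest at 3.15 Mb. CCND2, a cyclin, and MCL1, a survival protein, both had rows at -0.84, with the nearest closing region 456.3 and 970.2 kb away. Of 9 PRMT genes none had a row among those held.

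Closing regions were found on 39 of 39 chromosomes, at unequal densities. Overall there were 11.4 per 1000 accessible regions of 17-71, and 15.6 opening regions. Chromosome 32 had 48.9 per 1000 (23 of 470), chromosome 29 had 30.2 (13 of 430), chromosome 33 had 24.9 (15 of 602) and chromosome 22 had 24.3 (23 of 946). Chromosome 31 had 1.24 (1 of 808) and chromosome 13 had 3.47 (5 of 1439). Opening regions had 37.1 per 1000 on chromosome 31 and 22.9 on chromosome 13. On other chromosomes both kinds lay above their overall density, as on chromosome 27, with 17.8 closing and 38.2 opening regions per 1000, and on chromosome 14, with 18.6 and 20.2. Copy number was not measured, and whether it moves with these densities was not tested.

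**Figure D5:**
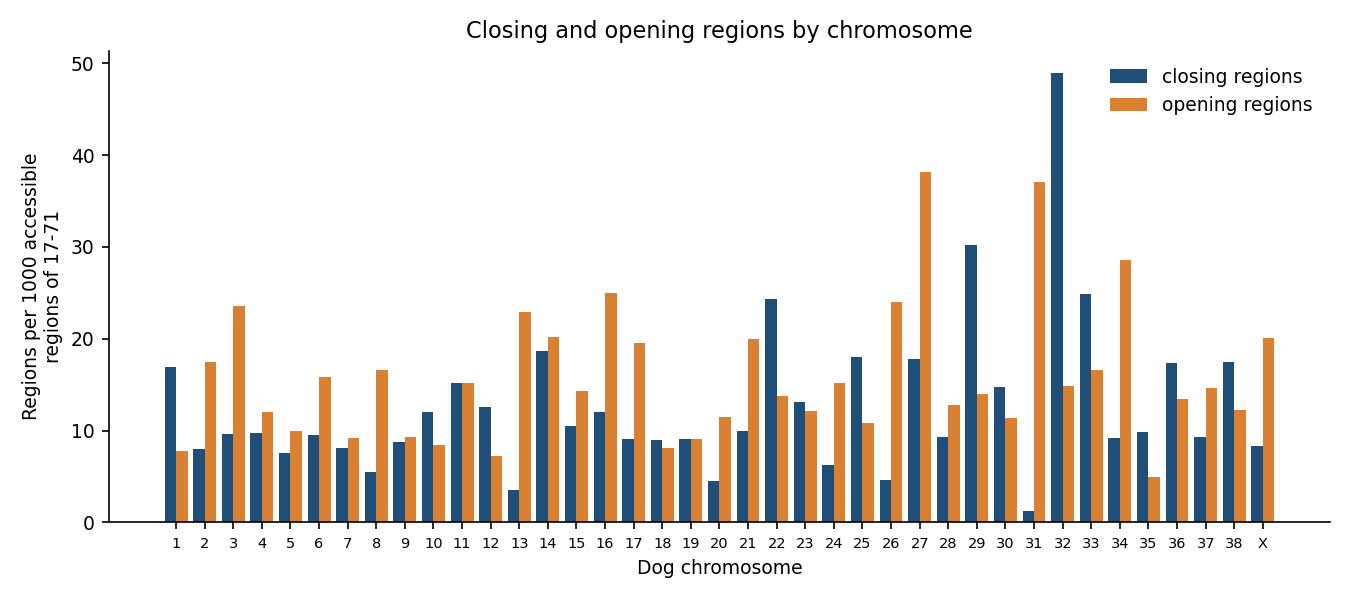
Closing (blue) and opening (orange) regions per 1000 accessible regions of 17-71 (vertical axis) on each dog chromosome (horizontal axis). Closing regions run from 1.24 on chromosome 31, where opening regions stand at 37.1, to 48.9 on chromosome 32.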

How the data were processed

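ATAC-seq libraries were made from nuclei of 17-71 and CLBL-1 cells. According to the submitters' processing notes, reads were aligned to CanFam3.1 with Bowtie2 2.2.4 and peaks called with MACS2, and the authors deposited 1 broad peak list per library. Their fold enrichment is a ratio to local background and, like the deposited -log10 p, was used as given; every peak had a -log10 p of at least 5. Coordinates are CanFam3.1, counted from 1. The count table's fold changes and p-values were not used, and only its log2CPM and gene pairing served to choose regions. A genome and gene annotation of this build were not used here, so no sequence, motif or start-site distance is given.

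Peaks of a line that overlapped or touched were joined with Python 3.11.15 (pandas 2.3.3; tested against bedtools 2.31.1). A region overlapped a peak when they shared at least 1 bp. Log2 of the highest fold enrichment per region and library, centred on the library's median, was compared between C220 and control with limma 3.58.1 in R 4.3.3 (moderated test, all regions with a peak in all 5 libraries of the line, Benjamini-Hochberg). The fit was checked on simulated data. Regions printed singly were those with the 3 lowest rule values, the 5 strongest lost peaks, the 3 strongest kept peaks and the 3 smallest CLBL-1 p-values, and the members of the largest groups. The regions, gene lists and comparisons were chosen with earlier results of these data known. Alternatives were another rule threshold, stricter peak lists, other scalings and leaving out each library.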

Additional observations from a re-analysis of the deposited data

How the results depend on the processing

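With 1 library left out, the rule kept 202 (without B4) to 647 regions, and at -1.0 it kept 214. Restricting the lists to peaks with a -log10 p of 10 or more left peaks at 66 regions in B4 and 172 in B6, and at 113, 126, 140, 135 and 103 in C2, C3, C4, C5 and C6. It raised the regions with a peak in every control and no C220 library of 17-71 from 104 to 169, and the 20000 strongest peaks per library gave 62. The same 2 restrictions left 1 and 3 such regions in CLBL-1 in place of 5, and the first left 160 regions with any CLBL-1 peak. With 1 library left out these ranged from 110 to 230 (without B6) in 17-71 and from 5 to 11 in CLBL-1 (without C2; 10 without C4). The regions gained in CLBL-1 ranged from 3 to 13 (13 without C2, 12 without C3 and 7 without C6). Shares over all regions were not computed at these settings.

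On fold enrichment, limma called 0 to 12 of all 17-71 regions lower and 0 to 85 higher with 1 library left out, the highest of both without B6, when a lone C220 library is assumed to vary as the controls do. Without B6, 2 closing regions were called in each direction. At an unadjusted p under 0.05, 592 (without B4) to 1251 of all 17-71 regions were lower, in place of 910, and 29 (without B2) to 78 (without B1) of the closing regions. The 1 CLBL-1 call, not a closing region, was lost without centring and with a length-weighted mean of the peaks (0 in both), and with any library left out (0). Without centring, 338 of all CLBL-1 regions and 10 closing regions were lower at an unadjusted p under 0.05. Leaving out 1 library gave 481 to 827 and 9 to 17. The libraries of 17-71 chose the regions. There the median difference of closing regions minus that of all regions ran from -0.18 to -0.10 (SD between libraries 0.08). In CLBL-1 it was -0.01, within the spread between libraries (SD 0.03), and moved to -0.03 without C2 or without C6. No paired analysis was possible from the labels, which number the libraries of a line in 1 series (B1 to B6, C2 to C6) and state no pairs. Whether control and C220 cultures were paired is unknown. Motif, base composition and start-site comparisons were not run.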
